A study of Neurospora crassa with 22 samples.

Results

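Transcripts of 7 Neurospora crassa genes that place, build and plug the septum were followed in RNA immunoprecipitation libraries of GUL-1-GFP. The genes were chosen by name, but with earlier results of these data known. These were the kinase gene dbf-2 (NCU09071), its activator mob-1 (NCU01605), the kinase gene cdc-7 (NCU01335), bud-3 (NCU06579), bud-4 (NCU00152), the formin gene bni-1 (NCU01431) and hex-1 (NCU08332). They are 7 of the 10592 features in the count table, and all 7 were among the 7114 features that passed the filter on low counts. Under Nikkomycin Z only bni-1 passed the test between the pull-downs of the strains, where 7.11% of features were called higher and 5.31% lower. Its level was 3.24-fold higher in the tagged strain on scaled total counts, a difference that did not hold on protein-coding counts. The call was also lost when any 1 of the 6 libraries compared was left out. None of the 7 passed that test in standard medium, where 2.59% of features were called higher and 0% lower.

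A hypha of N. crassa is divided by septa that keep a central pore. Septation is started by a kinase cascade in which CDC-7 acts upstream of the nuclear Dbf2-related kinase DBF-2 and its co-activator MOB-1, while BUD-3 and the landmark protein BUD-4 mark the site of the future septum, where the formin BNI-1 nucleates the actin of the contractile ring. HEX-1 forms the crystalline core of the Woronin body, the organelle that plugs the pore when a hyphal compartment is wounded.

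The strains were GUL-1-GFP, in which gul-1-sgfp driven by the ccg-1 promoter at his-3 was carried in a gul-1 deletion background marked with hph, and a non-tagged wild-type. RNA pulled down with GFP-binding beads and total RNA (input) was sequenced from hyphae grown in standard Vogel's sucrose medium, or in that medium with 1e-05 M Nikkomycin Z, an inhibitor of chitin synthesis, for the last 1 h. Strain, fraction and treatment gave 8 groups and 22 libraries, with 3 libraries in each group except the GUL-1-GFP inputs, which had 2 in each medium. The labels do not say that replicates came from separate cultures. The study's methods speak of 2 biological replicates and, elsewhere, of 3 replicates, without saying which libraries these are. The p-values therefore measure the spread between these libraries. The wild-type carries gul-1 at its own promoter, so a difference between the strains includes the promoter as well as the tag.

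The libraries held 6682673 to 28372176 counts, apart from the library labelled wild-type input replicate 3 of standard medium, which held 259583. Protein-coding features took 0.189% to 21.5% of the counts in the other libraries and gave only 59 counts in that one, where all 7 genes were at 0. Protein-coding counts numbered 900166 to 5200733 in GUL-1-GFP pull-downs, 257726 to 1171431 in wild-type pull-downs and 30660 to 48884 in GUL-1-GFP inputs, so few reads stood behind the GUL-1-GFP inputs, and also behind wild-type input replicate 2 of standard medium, with 50469. The tagged gene gul-1 had its highest levels in the pull-downs of its own strain, with a log2 fold change (log2FC) over the wild-type pull-downs of 4.81 in standard medium and 7.76 under Nikkomycin Z. Values of 1 and 2 were scarce in the table, with 862 and 1921 values, beside 4353 of 3, 4528 of 4 and 5340 of 5. Of the 154 values of the 7 genes, 19 were 0, none was 1 to 3 and the lowest above 0 was 4, and whether a listed 0 can stand for 1 or 2 reads is not known.

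Levels are given as CPM, the counts of a gene relative to the library total in units of 1e+06 counts, after scaling by the trimmed mean of M-values (TMM), edgeR's default scaling. Because pull-downs held a much larger protein-coding share than inputs, each gene was also expressed per 10000 protein-coding counts. On that scale the 7 genes together took 7.15 to 8.48 per 10000 in the GUL-1-GFP pull-downs of standard medium and 22.1 to 27.2 in the wild-type ones. Under Nikkomycin Z the values were 5.43 to 6.82 and 15.1 to 21.5. Every GUL-1-GFP pull-down lay below every wild-type pull-down, and also below both GUL-1-GFP inputs of its medium (15.3 and 21.7, then 17.6 and 15.4). The wild-type inputs gave 16.9 and 17.8 in standard medium, besides the 0 of replicate 3, and 11.6 to 11.8 under Nikkomycin Z. On this share the median feature also lay lower in GUL-1-GFP pull-downs, as given with the comparison of the pull-downs.

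**Figure D1:**
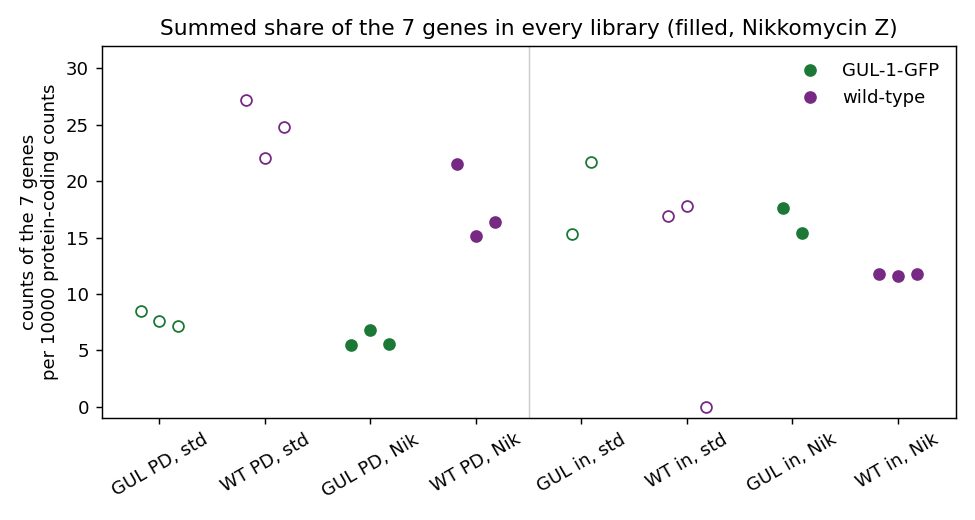
Counts of the 7 genes summed and divided by 10000 protein-coding counts (vertical axis) in each of the 22 libraries, by group (PD, pull-down; in, input; std, standard medium; Nik, Nikkomycin Z). GUL-1-GFP pull-downs sit between 5.43 and 8.48 and wild-type pull-downs between 15.1 and 27.2.

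**Figure D2:**
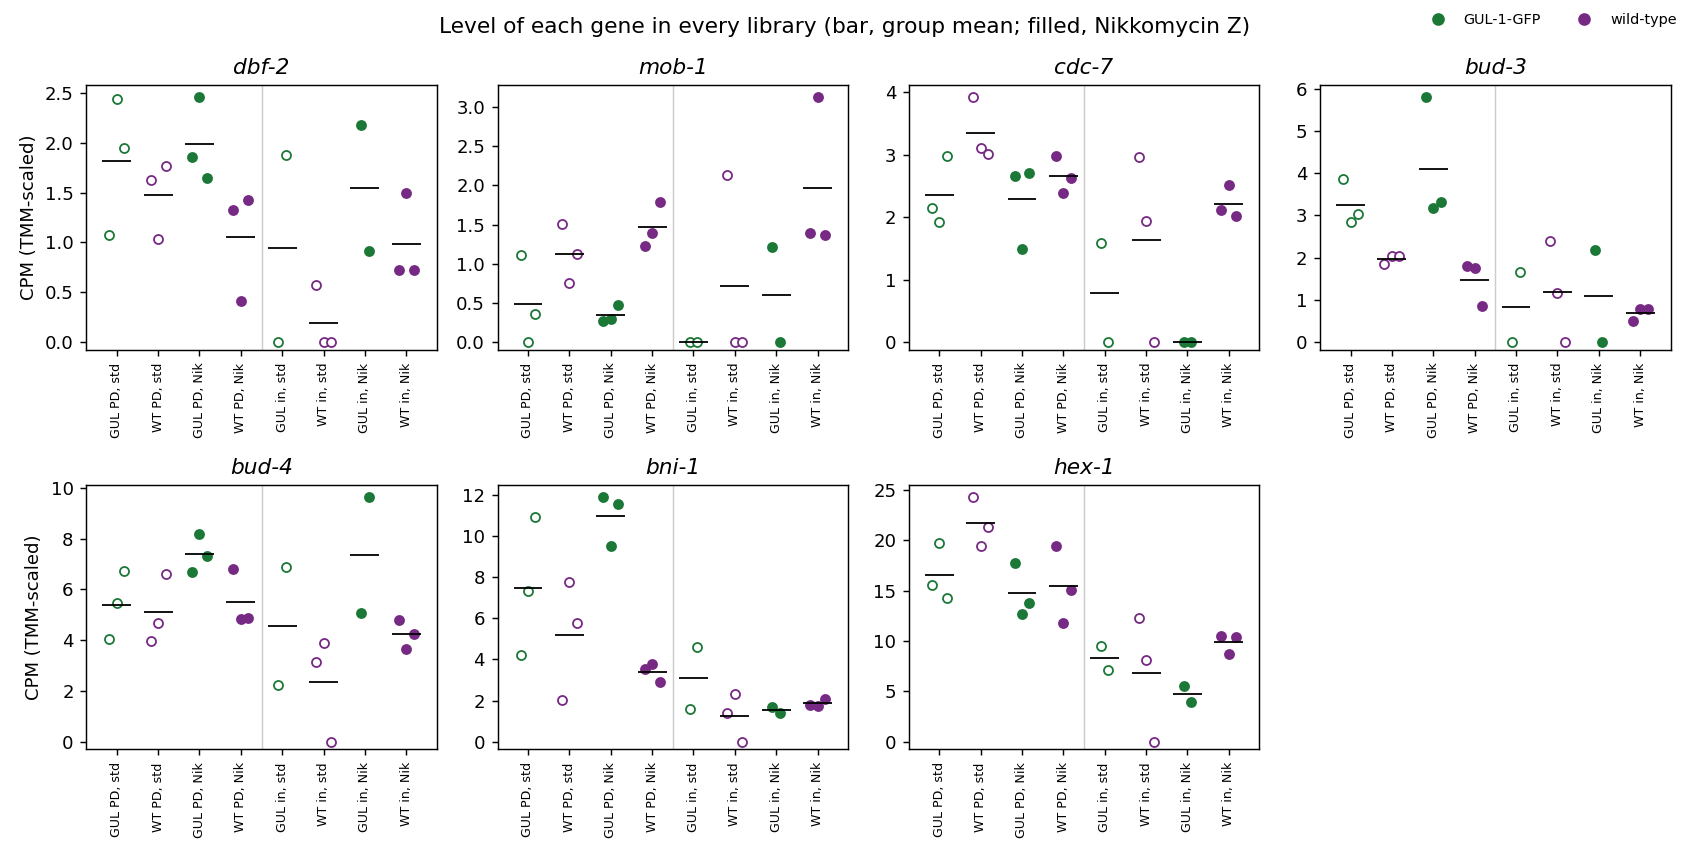
TMM-scaled CPM of each gene (vertical axis, linear, a separate range per gene) in every library, with a bar at the mean of each group. The bni-1 level in GUL-1-GFP pull-downs under Nikkomycin Z (9.49 to 11.9 CPM) lies apart from the other groups of that medium on this scale, though not on protein-coding counts, and several inputs are at 0.

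The kinase genes were read at low depth. The counts of dbf-2 in GUL-1-GFP pull-downs were 116, 42 and 114 in standard medium and 112, 58 and 95 under Nikkomycin Z. In wild-type pull-downs they were 29, 26 and 123, and 37, 7 and 43. On CPM the strains overlapped in standard medium (1.82 ± 0.689 and 1.47 ± 0.388, SD, n = 3 each). Under Nikkomycin Z the GUL-1-GFP pull-downs, at 1.65 to 2.46, were above the wild-type ones, at 0.407 to 1.43. In that medium 25.7% of features were higher without overlap and 27% lower. Per 10000 protein-coding counts the strains overlapped there, at 0.215 to 0.444 and 0.234 to 0.792. In standard medium the tagged strain was lower on that scale, at 0.285 to 0.467 against 0.588 to 1.13. The inputs of dbf-2 held 0 to 34 counts in any library. The order of its group means on CPM, highest in GUL-1-GFP pull-downs and lowest in wild-type inputs of standard medium, therefore rests on few reads.

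Its activator mob-1 was the least read member. It gave 120, 0 and 21 counts in GUL-1-GFP pull-downs of standard medium and 16, 7 and 27 under Nikkomycin Z, against 27, 19 and 78, and 34, 24 and 54, in wild-type pull-downs. Under Nikkomycin Z its CPM was 0.266 to 0.469 in GUL-1-GFP and 1.22 to 1.79 in wild-type pull-downs, without overlap. Both GUL-1-GFP inputs of standard medium were at 0, and the pull-down mean of 0.490 CPM lay below the 0.788 CPM that 3 counts per input library would give, so no fold is given for that comparison.

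For cdc-7, the upstream kinase of the cascade, GUL-1-GFP pull-downs held 231, 33 and 175 counts in standard medium and 160, 35 and 156 under Nikkomycin Z. The GUL-1-GFP inputs held 5 and 0, then 0 and 0. Wild-type pull-downs held 70, 78 and 210, then 83, 41 and 79, and wild-type inputs held 36, 10 and 0, then 38, 57 and 28. In standard medium the CPM of cdc-7 was 1.91 to 2.99 in GUL-1-GFP pull-downs and 3.01 to 3.92 in wild-type pull-downs, the tagged strain being the lower one. Under Nikkomycin Z the pull-downs of the strains overlapped on CPM (2.28 ± 0.693 and 2.66 ± 0.302, SD, n = 3 each). On that scale only the GUL-1-GFP inputs stood apart from the other groups of that medium, at 0. Per 10000 protein-coding counts the pull-downs of that medium did not overlap, at 0.268 to 0.368 in GUL-1-GFP and 1.37 to 1.73 in wild-type. With protein-coding counts as library sizes the log2 fold change was -2.26, beside -2.15 for the median feature.

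The gene bud-3, whose product marks the septation site, had the higher CPM in the tagged pull-downs in each medium, an order that turned in standard medium and was lost under Nikkomycin Z per 10000 protein-coding counts. In standard medium its CPM was 3.86, 2.84 and 3.04 in GUL-1-GFP and 1.85, 2.03 and 2.04 in wild-type pull-downs, with counts of 416, 49 and 178, and 33, 51 and 142. Under Nikkomycin Z it was 5.80, 3.18 and 3.31 CPM in GUL-1-GFP and 1.797, 1.75 and 0.863 CPM in wild-type pull-downs. The strains did not overlap in either medium, and the lowest group means were those of the inputs, at 0.696 to 1.18 CPM. On protein-coding counts its level was 0.540 to 1.02 per 10000 in GUL-1-GFP against 1.15 to 1.28 in wild-type pull-downs of standard medium, and 0.451 to 0.671 against 0.479 to 1.04 under Nikkomycin Z.

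The landmark gene bud-4 had overlapping CPM in the pull-downs of the strains. The means were 5.41 ± 1.34 in GUL-1-GFP and 5.10 ± 1.36 in wild-type pull-downs of standard medium, and 7.39 ± 0.744 and 5.50 ± 1.12 under Nikkomycin Z (SD, n = 3 each). The GUL-1-GFP inputs, at 2.22 and 6.89 CPM in standard medium and 5.08 and 9.64 CPM under Nikkomycin Z, reached as high as the pull-downs. Per 10000 protein-coding counts GUL-1-GFP pull-downs were lower without overlap, at 1.04 to 1.20 against 2.67 to 3.94 in standard medium. Under Nikkomycin Z they were 0.775 to 1.48 against 2.71 to 3.94. With protein-coding counts as library sizes the log2 fold changes were -1.50 and -1.54, beside -1.61 and -2.15 for the median feature.

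The formin gene bni-1 set the GUL-1-GFP pull-downs of Nikkomycin Z apart on CPM, but not on protein-coding counts. Its counts under Nikkomycin Z were 716, 224 and 666 in GUL-1-GFP pull-downs, 7 and 6 in GUL-1-GFP inputs, 98, 65 and 87 in wild-type pull-downs and 32, 39 and 29 in wild-type inputs. The corresponding CPM was 11.9, 9.49 and 11.6 in GUL-1-GFP pull-downs and 1.69 and 1.38 in their inputs, with 3.52, 3.78 and 2.89 in wild-type pull-downs and 1.79, 1.72 and 2.09 in theirs. All 3 GUL-1-GFP pull-downs were above all 8 other libraries of that medium. Per 10000 protein-coding counts bni-1 was at 1.38, 1.71 and 1.57 in these pull-downs, 1.67 and 1.34 in their inputs and 2.04, 2.18 and 1.60 in wild-type pull-downs, with overlap. In standard medium the GUL-1-GFP pull-downs spread from 4.20 to 10.9 CPM (counts of 453, 126 and 641) and the wild-type pull-downs from 2.02 to 7.76 CPM (36, 195 and 401), with overlap between the strains. Inputs of standard medium lay at 1.58 and 4.59 CPM in GUL-1-GFP and at 1.40, 2.33 and 0 CPM in wild-type.

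The Woronin body gene hex-1 was the most read member, with 299 to 1684 counts in GUL-1-GFP pull-downs and 202 to 1488 in wild-type pull-downs. Its CPM was 15.6, 19.8 and 14.2 in GUL-1-GFP pull-downs of standard medium, against 24.3, 19.4 and 21.4 in wild-type ones. Under Nikkomycin Z it was 17.8, 12.7 and 13.8 in GUL-1-GFP, against 19.4, 11.8 and 15.1. The strains overlapped in both media. Both strains had lower CPM in input than in pull-down, at 9.50 and 7.10 in GUL-1-GFP inputs of standard medium, 5.56 and 3.90 under Nikkomycin Z, and 8.72 to 10.6 in wild-type inputs under Nikkomycin Z. Per 10000 protein-coding counts, in contrast, hex-1 was 2.53 to 4.13 in the GUL-1-GFP pull-downs of standard medium and 6.96 to 9.78 in the matching inputs, and in wild-type pull-downs it was 11.05 to 16.8.

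The first comparison asked whether each transcript was enriched in the GUL-1-GFP pull-down over its input. In standard medium none of the 7 was called, where 18.2% of the features tested were called higher and 0.45% lower. At an unadjusted p under 0.05 edgeR counted 2396 features and 1 of the 7, cdc-7. DESeq2 called 1 of the 7, hex-1, where it called 24.5% of features higher and 0.309% lower. Under Nikkomycin Z, 3 of 7 were called higher, where 18.8% of features were called higher and 0.45% lower. These 3 were cdc-7, bni-1 and hex-1, none of which was called higher with protein-coding counts as library sizes, where dbf-2 and bud-4 were called lower. On that scale 20.3% of features were called lower and 2.9% higher. By CPM, cdc-7, bud-3 and hex-1 were above input without overlap in standard medium, where 43.5% of features were higher and 3.44% lower, and cdc-7, bud-3, bni-1 and hex-1 under Nikkomycin Z, where 56.5% were higher and 4.74% lower.

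The fitted log2FC of the 7 had a median of 1.23 in standard medium and 1.64 under Nikkomycin Z, beside 3.32 and 3.69 for all features tested. These overall medians rest largely on inputs at 0: both GUL-1-GFP inputs were at 0 for 48.3% and 53.3% of features, whose median fitted log2FC was 6.79 and 6.41. Among the 3681 and 3319 features with a count in at least 1 of the inputs, a split chosen after the values were seen, the medians were 0.47 and 0.62. In each medium 6 of the 7 genes were among these, with medians of 1.12 and 1.001, and 5 of 6 and 3 of 6 lay above the median of these features. Of the 6, none was called higher in standard medium and 2 under Nikkomycin Z, where 10.5% and 12.8% of these features were. The gene left out was mob-1 in standard medium and cdc-7 under Nikkomycin Z.

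Under Nikkomycin Z, bni-1 rose in the pull-down with a log2FC of 2.84 (SE 0.71, edgeR's quasi-likelihood test, Benjamini-Hochberg adjusted p = 0.00621), from 1.54 ± 0.223 CPM in 2 inputs to 10.98 ± 1.303 CPM in 3 pull-downs (SD). All 3 pull-downs were higher than both inputs. Without GUL-1-GFP input replicate 2 or replicate 3 of that medium, edgeR's quasi-likelihood test gave it Benjamini-Hochberg adjusted p = 0.0539 and 0.0741. On the protein-coding scale its log2FC was 0.05, so the rise was on TMM-scaled counts and not on protein-coding counts.

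For hex-1 the pull-down mean was 14.8 ± 2.67 CPM (SD, n = 3) and the input mean 4.73 ± 1.17 (SD, n = 2), a log2FC of 1.64 (SE 0.59, edgeR's quasi-likelihood test, Benjamini-Hochberg adjusted p = 0.0482). Leaving out any 1 of the 5 libraries ended this call, with a Benjamini-Hochberg adjusted p of 0.0643 to 0.243 by edgeR's quasi-likelihood test. With protein-coding counts as library sizes hex-1 turned to a log2FC of -1.16. In standard medium the same scaling gave -1.26.

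The call of cdc-7 rested on inputs of 0 and 0. Against a floor of 3 counts per input library, the pull-downs held at least 3.23-fold higher CPM, and its fitted log2FC of 8.97 (SE 2.01, edgeR's quasi-likelihood test, Benjamini-Hochberg adjusted p = 0.00298) depends on the prior count and is no bound. Per 10000 protein-coding counts the pull-down mean was 0.454 times that floor, so the direction cannot be read on that scale. Features with both GUL-1-GFP inputs at 0 made up 68.3% of those called higher in that medium.

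Wild-type beads carry no tagged protein and give the background of the pull-down. None of the 7 was called in the wild-type pull-down over input in either medium, where 0.45% and 0% of features were called higher and 0% lower. At an unadjusted p under 0.05 edgeR counted 954 and 247 features, and 3 and 0 of the 7 genes. The fitted log2FC of the 7 had a median of 0.65 in standard medium, beside 0.61 for all features, and of 0.38 under Nikkomycin Z, beside 0.08. The values of hex-1 were 1.28 (SE 0.51) and 0.64 (SE 0.48), and those of bni-1 were 1.58 (SE 0.63) and 0.87 (SE 0.53). By CPM, dbf-2, cdc-7, bud-4 and hex-1 were above input without overlap in standard medium, where 21.2% of features were higher and 0.0281% lower, and bud-3, bud-4, bni-1 and hex-1 under Nikkomycin Z, where 9.64% were higher and 7.79% lower. Thus hex-1 CPM was above input without overlap in both strains and both media.

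**Figure D3:**
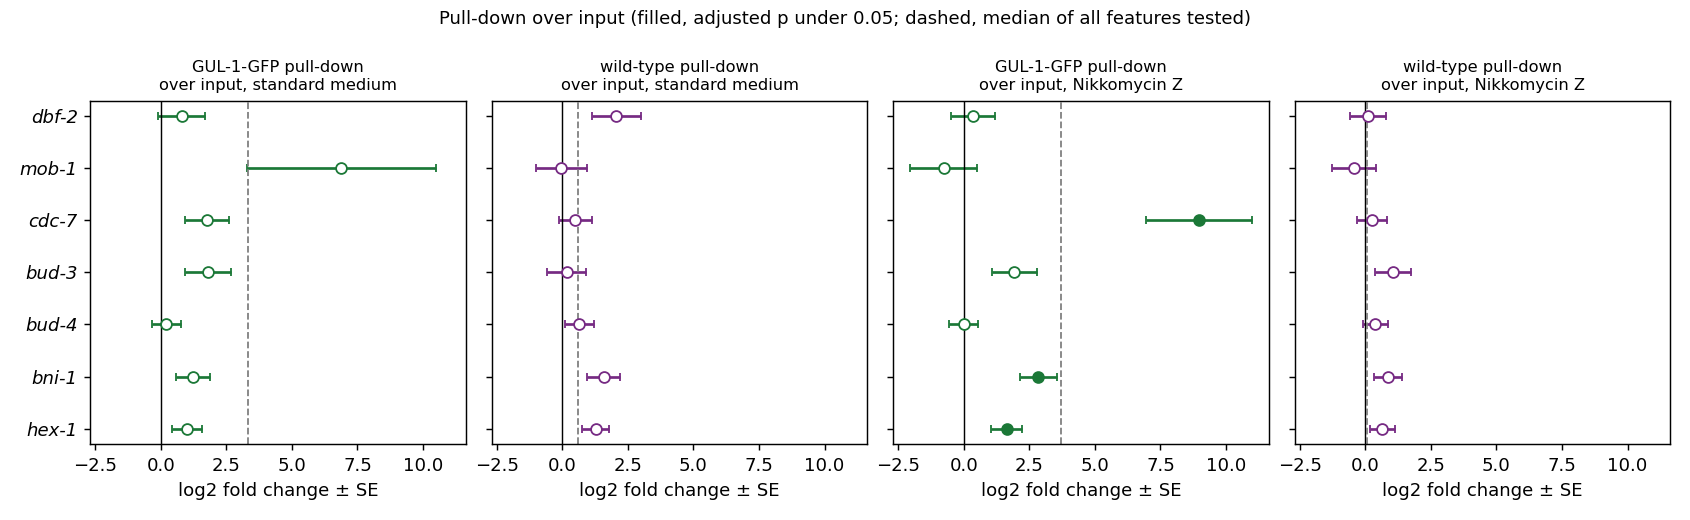
Log2 fold change of the TMM-scaled pull-down over input (horizontal axis, ± SE) for the 7 genes in each strain and medium, with filled points at adjusted p under 0.05 and the median of all features as a dashed line. In GUL-1-GFP libraries 6 of 7 genes lie below the median of 3.32 or 3.69, medians that include the 48.3% and 53.3% of features with both inputs at 0. The points of mob-1 in standard medium and cdc-7 under Nikkomycin Z rest on inputs at 0, and the 2 other filled points do not keep their calls on protein-coding counts.

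The interaction of strain and fraction asks whether enrichment over input differed between the strains. In standard medium none of the 7 was called, where 2.16% of features were called higher in GUL-1-GFP and 0.0422% lower. None of the 7 reached an unadjusted p under 0.05 by edgeR there, against 1272 features. Under Nikkomycin Z 1 of 7 was called, where the shares were 9.17% and 0.112%. This was cdc-7, with a fitted log2FC of 8.71 (SE 2.30, edgeR's quasi-likelihood test, Benjamini-Hochberg adjusted p = 0.0172) that again depends on the GUL-1-GFP inputs at 0. Of the 652 features called higher, 72.2% had both of these inputs at 0. Without GUL-1-GFP input replicate 2 or replicate 3, edgeR's quasi-likelihood test gave cdc-7 Benjamini-Hochberg adjusted p = 0.0938 and 0.106. The value for bni-1 was 1.97 (SE 0.86), which did not pass (edgeR's quasi-likelihood test, Benjamini-Hochberg adjusted p = 0.151).

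In a comparison of the inputs alone, chosen after the values were seen, cdc-7 was also the member called, lower in the tagged than in the wild-type inputs under Nikkomycin Z, at 0 and 0 counts against 38, 57 and 28. In that comparison 18.8% of features were called lower and 1.24% higher. None of the 7 was called between the inputs of standard medium, where the shares were 2.02% and 0.0843%. Only mob-1 had an unadjusted p under 0.05 by edgeR in that medium. Its inputs there held 0 and 0 counts in GUL-1-GFP and 26, 0 and 0 in wild-type, too few for a fold.

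The pull-downs of the strains were then compared directly, without the inputs. In standard medium none of the 7 was called by edgeR, where 2.59% of features were called higher in GUL-1-GFP and 0% lower, and none of the 7 had an unadjusted p under 0.05, against 527 of the features. DESeq2 also called none of them. The log2FC of the 7 ranged from -1.07 for mob-1 to 0.72 for bud-3. By CPM, bud-3 was higher and cdc-7 lower without overlap, where 9.42% and 5.54% of features were.

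Under Nikkomycin Z, bni-1 was called higher in the GUL-1-GFP pull-down, with a log2FC of 1.69 (SE 0.53, edgeR's quasi-likelihood test, Benjamini-Hochberg adjusted p = 0.0336), or 3.24-fold. In this comparison 7.11% of features were called higher and 5.31% lower, so 1 call in 7 genes is close to what the table as a whole gives. The values next to it were bud-3, with 1.49 (SE 0.65, edgeR's quasi-likelihood test, Benjamini-Hochberg adjusted p = 0.130), and mob-1, with -2.07 (SE 0.89, edgeR's quasi-likelihood test, Benjamini-Hochberg adjusted p = 0.124). By CPM dbf-2, bud-3 and bni-1 were higher and mob-1 lower without overlap, where 25.7% of features were higher and 27% lower. For bud-4, cdc-7 and hex-1 the log2FC was 0.43 (SE 0.48), -0.22 (SE 0.55) and -0.06 (SE 0.47). An interval of 2 SE for hex-1 reached from -1.01 to 0.88.

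The bni-1 call was a weak one. Leaving out any 1 of the 6 libraries kept the log2FC at 1.69 to 1.79 but gave a Benjamini-Hochberg adjusted p of 0.0676 to 0.141 by edgeR's quasi-likelihood test, and the call was also lost with total counts as library sizes and with protein-coding features only. With protein-coding counts as library sizes its log2FC turned to -0.32. On that scale the median feature moved from -0.13 to -2.15 (in standard medium from -0.07 to -1.61), and the split of called features changed from 506 higher and 378 lower to 145 higher and 3821 lower (in standard medium from 184 and 0 to 108 and 1711). Since a change of library sizes shifts all features nearly alike, distances from the median feature barely move with it: bni-1 lay 1.82 above the median with TMM, bud-3 1.62 above, hex-1 0.07 above and mob-1 1.94 below it (-1.94).

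**Figure D4:**
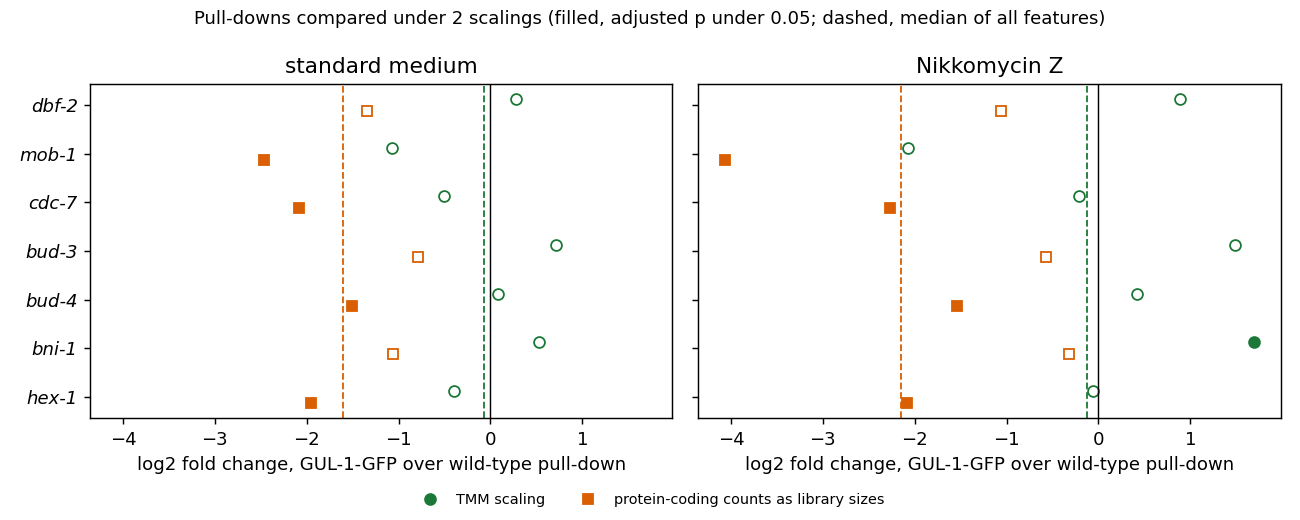
Log2 fold change of GUL-1-GFP over wild-type pull-downs (horizontal axis) for the 7 genes under TMM scaling (circles) and with protein-coding counts as library sizes (squares), filled at adjusted p under 0.05, with the median of all features under each scaling as a dashed line. All 7 genes lie at negative values on protein-coding counts, as does the median, since the change of library sizes shifts all features nearly alike.

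Conidiation genes moved with this comparison. The sum of the markers con-6, con-8, con-10, eas and con-13 was 0.0991 to 0.223 per 10000 protein-coding counts in GUL-1-GFP pull-downs under Nikkomycin Z and 19.1 to 27.6 in wild-type ones. In the inputs of that medium it was 0 to 2.86 and 14.2 to 22.6. In standard medium the pull-downs overlapped, at 0.133 to 8.30 and 1.31 to 52.4. In the tagged pull-downs of Nikkomycin Z con-6, con-10 and con-13 were at 0, and con-13 was at 0 in every group. The part of these genes, or of the cells that express them, in the difference between strains was not tested, and in bulk RNA fewer cells of a type and less RNA per cell cannot be told apart.

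The strain difference of bni-1 was not shown to depend on the treatment. The difference between its log2FC of 1.69 under Nikkomycin Z and 0.52 in standard medium was 1.17 (SE 0.73, edgeR's quasi-likelihood test, Benjamini-Hochberg adjusted p = 0.617), in a comparison chosen after the values were seen. None of the 7 was called in it, where 0% of features were called higher and 0.0281% lower, and none had an unadjusted p under 0.05.

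Nikkomycin Z itself called none of the 7 genes. In wild-type inputs 0.928% of features were called higher and 0.0703% lower, in wild-type pull-downs 0.0281% and 0.0141%, and in GUL-1-GFP pull-downs 0% and 0%, with 1223, 822 and 301 features and none of the 7 at an unadjusted p under 0.05 by edgeR. DESeq2 called none of the 7 in these comparisons either. The log2FC of the 7 lay between -1.33 for bud-3 and 1.49 for dbf-2 in wild-type inputs, between -0.61 for bni-1 and 0.39 for mob-1 in wild-type pull-downs, and between -0.62 for mob-1 and 0.56 for bni-1 in GUL-1-GFP pull-downs. Without overlap on CPM, dbf-2 was higher in wild-type inputs, where 25.5% of features were higher and 0.0281% lower. In wild-type pull-downs cdc-7, bud-3 and hex-1 were lower, where 11.7% of features were lower and 14.5% higher. In GUL-1-GFP pull-downs none of the 7 stood apart, where 5.92% were lower and 6.73% higher. At 3 libraries against 3, with 1 wild-type input holding 59 protein-coding counts, the SE of these differences ranged from 0.47 for hex-1 to 0.99 for mob-1. Differences within 2 SE of 0 were not detectable at this depth, and differences beyond 2 SE can also fail after adjustment over all features tested.

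Other genes of the septum and its pore were read from a list of 17: 5 septin genes, 2 regulators, 6 genes of the actomyosin ring and 4 of the Woronin body and septal pore. This list was also made with earlier results of these data known. Septins are filament-forming GTPases that assemble at septa and hyphal tips. Between the pull-downs 2 of the 17 were called higher in standard medium and 4 of 17 under Nikkomycin Z, and none was called lower. The shares over all features were 2.59% and 7.11% higher, and 0% and 5.31% lower. Of these 4, 3 were septin genes: cdc-3 (NCU08297), cdc-10 (NCU03515) and NCU01998. The other 2 septin genes were called in neither medium with TMM in the fit of all groups. Over all 5 septin genes the log2FC ranged from -0.71 to 2.69 in standard medium and from -0.71 to 3.88 under Nikkomycin Z. The remaining gene of the 4 called was so (NCU02794), whose product is needed for hyphal fusion and gathers at septal plugs. No gene of the actomyosin ring was called in either medium, their log2FC being -0.80 to -0.17 in standard medium and -1.46 to 0.79 under Nikkomycin Z.

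The septin gene cdc-3 had 22.4, 50.4 and 63.5 CPM in GUL-1-GFP and 4.26, 11.3 and 5.47 CPM in wild-type pull-downs of standard medium. Under Nikkomycin Z it had 87.2, 53.4 and 64.4 CPM against 4.53, 4.77 and 4.64. The strains did not overlap in either medium, and the log2FC was 2.69 (SE 0.57) and 3.88 (SE 0.60), with Benjamini-Hochberg adjusted p of 0.00362 and 5.49e-05 by edgeR's quasi-likelihood test. For cdc-10 the log2FC was 2.28 (SE 0.51) and 2.73 (SE 0.52). NCU01998 gave 3.74 (SE 0.85) and so gave 1.94 (SE 0.62) under Nikkomycin Z.

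The calls differed in how they held. Without any 1 of the 6 Nikkomycin Z pull-downs, cdc-3, cdc-10 and NCU01998 stayed called and so did not, as was the case for bni-1. In standard medium both septin calls were lost without wild-type pull-down replicate 3, that of cdc-3 also without GUL-1-GFP pull-down replicate 3 and in a fit of only the groups compared, and that of cdc-10 also without wild-type pull-down replicate 1. With protein-coding counts as library sizes cdc-3 kept its call under Nikkomycin Z, at a log2FC of 1.84, while cdc-10 and NCU01998 kept the direction and lost the call, and so turned to -0.08. That scaling called 9 of the 17 genes lower in each medium, where 26.5% of features were called lower in standard medium and 59.2% under Nikkomycin Z. The septin gene cdc-11 (NCU02464) was among the 9 in both media. A fit of only the Nikkomycin Z pull-downs called 7 of the 17 higher and 3 lower, cdc-11 among the 3, where 24.5% and 22.3% of features were. In the interaction of strain and fraction under Nikkomycin Z, 5 of the 17 were called higher, where 9.17% of features were. These 5 were cdc-3, cdc-10, NCU01998, the alpha-actinin gene NCU06429 and wsc (NCU07842), which encodes the protein that sorts Woronin bodies to the cell cortex. The GUL-1-GFP inputs of the last 3 were at 0 and 0, like those of cdc-7. Without GUL-1-GFP input replicate 3 of that medium 0 of the 17 were called higher, and without replicate 2 the 3 called were cdc-3, cdc-10 and the tropomyosin gene NCU01204. With protein-coding counts as library sizes 0 were called higher and 1 lower, where 1.44% of features were called higher and 12.8% lower. In standard medium edgeR called none of the 17 in this interaction, where 2.16% of features were called higher and 0.0422% lower. DESeq2 called 1 higher, cdc-3, where 3.19% of features were called higher and 0.0141% lower.

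**Figure D5:**
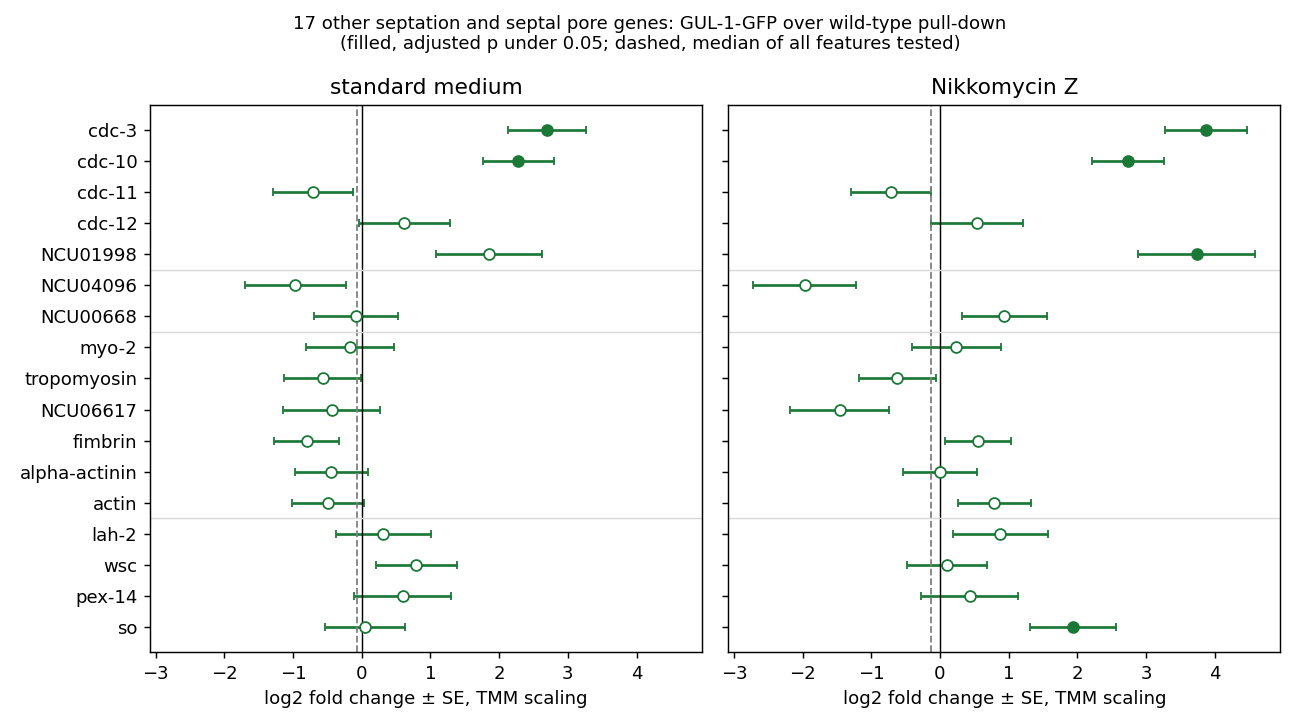
Log2 fold change of GUL-1-GFP over wild-type pull-downs (horizontal axis, ± SE, TMM scaling) for the 17 other genes, from top to bottom the septins, 2 regulators, the actomyosin ring, and the Woronin body and septal pore. Filled points passed adjusted p under 0.05: cdc-3 and cdc-10 in both media, NCU01998 and so under Nikkomycin Z, of which cdc-3 under Nikkomycin Z also passed on protein-coding counts.

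Across the 22 libraries the log2 CPM of the 7 genes correlated with each other at Pearson's r of 0.14 (dbf-2 and cdc-7) to 0.86 (bud-4 and hex-1). The genes most like each member reached higher values. For hex-1 they were pma-1, the plasma membrane proton pump gene, at 0.97 and mig-6 at 0.97. For mob-1 they were csn-2 at 0.98 and NCU08348 at 0.97, and for dbf-2 os-4 at 0.94 and NCU04151 at 0.94. For cdc-7 they were ods (NCU02209) at 0.98 and NCU06981 at 0.98, and for bud-4 NCU08720 at 0.97 and NCU00627 at 0.96. For bni-1 they were NCU09529 at 0.96 and NCU08779 at 0.96, and for bud-3 NCU05802 and NCU05575 at 0.96 each. The libraries share groups, depth and the placing of zeros, so these values describe the table and carry no test.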

How the data were processed

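The authors deposited unnormalized whole-number counts of 10592 features, 1 column for each of the 22 pull-down and input libraries. The study's methods describe trimmed single-end reads from a stranded kit, aligned with Tophat, kept at unique hits and counted on exons with HTSeq, whereas the submitters' processing notes name CASAVA 1.8.2, HISAT2 2.1.0 and StringTie 1.3.3b, and which of these made the table was not settled. The genome build is not given in the sources used here, so the NC12 annotation, which matched 10590 identifiers, served for gene names and biotypes alone, and levels were not compared between genes because no lengths were used. NCU04096 and NCU00668 carry other names in NC12 than in the list and are given by number. In standard medium, where the GUL-1-GFP input titles name the pull-down, libraries were grouped by their fraction label.

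Features were filtered with filterByExpr (minimum count 10), scaled by TMM and fitted in 1 model of 8 groups with edgeR 4.0.16 in R 4.3.3, by the quasi-likelihood test, and p-values were Benjamini-Hochberg adjusted over the 7114 features tested and called at 0.05. A prior count of 2 was used for log2 CPM. The script was checked on simulated counts. The 7 genes, the 17 other genes and the marker genes were chosen with earlier results of these data known. All 7 were to be named, other genes only where they passed between the pull-downs or in an interaction, and 2 most similar genes per member. Comparisons of strain or treatment share the same pull-down libraries and are not independent of each other. Alternatives were total counts or protein-coding counts as library sizes, TMMwsp, no filter, protein-coding features only, replicate blocks, only the groups compared, DESeq2 1.42.0 and each library left out. Protein-coding counts as library sizes, and every comparison without wild-type input replicate 3 of standard medium, were chosen after seeing the data. No sequences are shown, and 1 further gene is not reported here. Bounds against inputs at 0 used 3 counts per library and cover counting error only.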

Additional observations from a re-analysis of the deposited data

Results flagged for a closer look

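The enrichment of cdc-7 over input differed between GUL-1-GFP and wild-type libraries under Nikkomycin Z, with a fitted interaction log2FC of 8.71 on TMM-scaled counts. It rests on GUL-1-GFP inputs of 0 and 0 counts beside wild-type inputs of 38, 57 and 28. The pull-downs of the strains overlapped on CPM. Per 10000 protein-coding counts they did not, at 0.268 to 0.368 in GUL-1-GFP and 1.37 to 1.73 in wild-type. The fitted value depends on the prior count and is no bound. With a replicate block by culture cdc-7 was not called, where 4.77% of features were called higher. Its cause was not tested.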

How the results depend on the processing

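The count of called genes between the pull-downs under Nikkomycin Z kept its value of 1 in 5 of 15 alternatives. With total counts as library sizes, 7 were higher in GUL-1-GFP pull-down against input in standard medium, where 73.1% of features were. Between the pull-downs under Nikkomycin Z that scaling gave 0, where 5.93% of features were higher and 0.872% lower. Protein-coding features alone also gave 0 there, where 5.74% were higher and 7.31% lower. DESeq2 gave 1 over input in standard medium, where 24.5% of features were higher, and 2 in the interaction under Nikkomycin Z, where 17.9% were. A fit of only the groups compared gave 2 in that interaction, where 15.4% of features were higher and 1.14% lower. It gave 3 between the pull-downs under Nikkomycin Z, where 24.5% were higher and 22.3% lower. With protein-coding counts as library sizes, chosen after seeing the data, genes were called lower. In GUL-1-GFP pull-down against input in standard medium these were 2, where 13% of features were called lower. In the interaction under Nikkomycin Z they were 2, where 12.8% of features were. Between the pull-downs they were 4 in standard medium and 4 under Nikkomycin Z, where 26.5% and 59.2% of features were. The values given next turned sign on that scale and had a call under TMM or on that scale. The log2FC over input was -2.07 for bud-4 and -1.26 for hex-1 in standard medium, and -2.37 for dbf-2, -2.74 for bud-4 and -1.16 for hex-1 under Nikkomycin Z. The interaction under Nikkomycin Z was -1.89 for hex-1, and the difference between the pull-downs was -1.50 for bud-4 in standard medium, and -1.54 for bud-4 and -0.32 for bni-1 under Nikkomycin Z. The 4 genes called lower between the pull-downs of Nikkomycin Z did not include bni-1. They were mob-1 (-4.07), cdc-7 (-2.26), hex-1 (-2.09) and bud-4 (-1.54), beside a median feature at -2.15. Leaving out each library in turn gave 0 to 1 and 1 to 3 calls over input in GUL-1-GFP (standard medium, then Nikkomycin Z), 0 to 1 in the interaction under Nikkomycin Z, 0 to 1 between the pull-downs under Nikkomycin Z, and 0 in the other comparisons.

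Over all features, GUL-1-GFP pull-down against input in standard medium gave 1298 higher and 32 lower, against 5198 and 0 with total counts, 190 and 840 with protein-coding counts as library sizes, and 0 and 0 when only its 5 libraries were fitted. Under Nikkomycin Z it had 1337 and 32, against 3766 and 2, then 187 and 1309, and 2375 and 21 by DESeq2. The interaction under Nikkomycin Z had 652 and 8, against 1360 and 1, then 93 and 827, and 1272 and 5 by DESeq2, and the pull-downs of that medium had 506 and 378, against 1433 and 1301 in a fit of only their 6 libraries and 371 and 472 with protein-coding features only. The causes were not tested.

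Same-numbered pull-down and input libraries correlated in their deviations from the group means at 0.202 to 0.345 in standard medium, where 5 of 5 pairs were over 0.1, and at 0.0135 to 0.0936 under Nikkomycin Z, where 0 of 5 were. Differently numbered pairs of both media ranged from -0.312 to 0.206, with 1 of 20 over 0.1. The deviations of 2 GUL-1-GFP inputs mirror each other, so these pairs are not independent. The wild-type pair at 0.202 held the input with 59 protein-coding counts. The numbers went with pairs of libraries in standard medium only as a hint from the data, and the block left 0 calls among the 7 in every comparison of that medium. With the replicate number as that block, 0.141% to 17.5% of features were called higher in those comparisons. With the replicate number as a block, bni-1 kept its call between the pull-downs of Nikkomycin Z, and hex-1 lost its call over input, leaving 2 calls there. With a replicate block by culture the interaction under Nikkomycin Z gave 0 calls, against 1. Shallow inputs limit the enrichments, with 30660 to 48884 protein-coding counts in GUL-1-GFP, and 50469 and 59 in wild-type input replicates 2 and 3 of standard medium.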
